A study of Mus musculus with 13 samples.

Results

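The tumour suppressor p53 switches on Cdkn1a, which encodes the cyclin-dependent kinase inhibitor p21, together with a set of genes for feedback, cell death, antioxidant defence and secreted signals. 10 genes of this response were read across kidney libraries from a conditional Spns1 knockout, from iron-injected mice and from controls. They were Cdkn1a, Mdm2, Ccng1, Gdf15, Trp53, Trp53inp1, Bax, Phlda3, Sesn1 and Sesn2. The study reports iron overload in the knockout kidney from tissue staining, and iron was not measured in these libraries. The genes were taken by symbol from the 35013 rows of the count table, and all 10 were among the 16468 genes that passed the filter on low counts. The set was selected with the fold changes of these same libraries already known, so the values of its members in the comparisons between groups are given as a description, without p-values.

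Of the 13 libraries, all from kidneys of female mice, 4 are labelled Spns1 KO, 5 WT and 4 iron overload (FeO). All mice carried Megalin3'Cre-Ert and 1 Uprt flox allele (Uprt flox/+). Spns1 was flox/flox in the Spns1 KO group, and flox/+ in the WT and FeO groups by the study's methods, although the labels call both of these Spns1 WT. All 3 groups received tamoxifen. FeO mice were given 12 mg of iron as iron sucrose on each of 3 days and were killed 1 week later; the labels call this a dietary model, although they too describe injections. Spns1 encodes a transporter of the lysosomal membrane. The megalin promoter drives Cre in the proximal tubule, and recombined cells express uracil phosphoribosyltransferase, so that 4-thiouracil enters their new RNA, which was captured and selected for poly-A tails. Ages are not given in the sources used here.

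In unstressed cells the ubiquitin ligase Mdm2 keeps p53 protein low, largely without a change in the Trp53 message. DNA damage, oxidants and other stresses free p53, which then binds DNA and raises transcription of Cdkn1a, of Mdm2 itself and of many other genes. In the kidney p21 is known as a marker of injured tubule cells that have stopped dividing. Cdkn1a, Gdf15, Sesn2 and Trp53inp1 also respond to other transcription factors, so their messages are not a readout of p53 alone.

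p53 binds as a tetramer to a pair of half-sites of 10 bases each. The half-site consensus, which is its own reverse complement, was searched in RefSeq windows (GRCm38.p6) from 250 bases before to 50 after each annotated start. At least 1 match was found in 6 of the 9 members with a window, and in 9.55% of 27025 genes. Trp53inp1 had no window. The windows of Gdf15, Phlda3 and Sesn2 held none of these letters. The 6 members with a match are shown because they carry the sequence that the shared name of the group refers to, each on its gene's strand with the half-site in capitals and 10 bases on either side.
Cdkn1a: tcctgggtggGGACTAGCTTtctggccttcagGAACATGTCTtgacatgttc
Mdm2: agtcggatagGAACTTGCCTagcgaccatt
Ccng1: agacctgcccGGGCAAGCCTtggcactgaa
Trp53: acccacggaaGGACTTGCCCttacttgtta
Bax: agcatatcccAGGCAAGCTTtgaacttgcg
Sesn1: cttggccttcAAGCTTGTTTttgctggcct
Cdkn1a was the member with 2 half-sites, separated by 12 bases, in the stretch chr17:29090896-29090947 on the plus strand. They lie 73 and 51 bases before the annotated start at 29090979, and Cdkn1a had 2 windows. A pair with a spacer of at most 13 bases was present in 0.074% of genes. The other stretches lie at chr10:117710925-117710954 (minus strand) for Mdm2, chr11:40755452-40755481 (minus) for Ccng1, chr11:69580274-69580303 (plus) for Trp53, chr7:45467080-45467109 (minus) for Bax and chr10:41887256-41887285 (plus) for Sesn1. Sesn1 also had 2 windows, and its match precedes the start at 41887439, which lies inside the gene (chr10:41809935-41908424). The members without a printed stretch lie at chr4:11156431-11174379 (Trp53inp1), chr8:70629393-70632456 (Gdf15), chr1:135766119-135769136 (Phlda3) and chr4:132492032-132510501 (Sesn2) of GRCm38. The printed stretches are matches of letters, and no binding was measured. The best described p53 sites of Mdm2 lie outside such short windows, in the first intron. For Cdkn1a, the 10 bases directly after the half-site at 51 bases depart from the consensus only in their first base. The search therefore did not count them as an adjoining half-site.

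Total counts ranged from 23068023 to 71296474 per library. Spns1 did not separate the groups: it was 36.6 to 59.0 CPM (counts scaled to the library total, with TMM factors that offset differences in composition) in the libraries labelled Spns1 KO and 39.2 to 62.9 CPM in WT. The floxed allele loses exon 3 while the counts cover the whole gene, so this is a weak check of the genotype. Of the former, number 4 had the highest Spns1 of its group, 59.0 CPM, and it was also the highest or lowest of its group for all 10 members. WT 4 was likewise the extreme of its group for all 10 members, the lowest for 9 of them. The members' fold changes and the counts of each list in the Spns1 KO group are therefore given both with the library labelled Spns1 KO 4 and after leaving it out. The summed CPM of 10 proximal tubule markers was 3663 to 5100 in WT, 7019 to 8012 in Spns1 KO and 2132 to 5057 in FeO, and markers of macrophages, podocytes, endothelium and other nephron segments were above 0 in every library. Together, the markers of all other listed cell types summed to 2671, 2916, 3477, 5466 and 3237 CPM in WT 1 to 5. They summed to 4318 to 5447 CPM in Spns1 KO and to 7250, 3028, 3861 and 6847 CPM in FeO 1 to 4. In WT 4, FeO 1 and FeO 4 this exceeded the proximal tubule sum (4538, 2132 and 3208 CPM). Whether such composition bears on the members was not tested. A gene was called where its adjusted p was under 0.05 and its log2 fold change beyond 0.5, and these are the limits meant where a value is said to be past them. In such bulk RNA, fewer cells of a type and less RNA per cell cannot be told apart.

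Cdkn1a, whose product p21 holds cells in G1, was the member with the lowest fold change in Spns1 KO. Its message was 289, 261, 183, 104 and 234 CPM in WT 1 to 5. The 4 libraries labelled Spns1 KO held 25.3, 38.7, 40.9 and 113 CPM in order of their numbers. FeO 1 to 4 held 136, 129, 139 and 102 CPM. The first 3 Spns1 KO libraries thus lay below every WT and FeO library, while the fourth lay inside both ranges, and 3 of the 4 FeO libraries lay inside the WT range. The mean of Spns1 KO was 0.254 times that of WT, a log2 fold change of -1.98 (standard error 0.39), or -2.62 without the library labelled Spns1 KO 4. In FeO the log2 fold change was -0.76 (standard error 0.37), which did not pass the limits for a call with all libraries but did so when WT 4 (-0.92) or the library labelled Spns1 KO 4 was left out, with only WT and FeO in the fit, and with the trend of fold change on transcript length and GC content removed (-1.05). The gene lies at chr17:29090976-29100727, and 9.78% of its 31-base words also occur in other transcripts, among them an unverified transcript on the opposite strand.

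**Figure D1:**
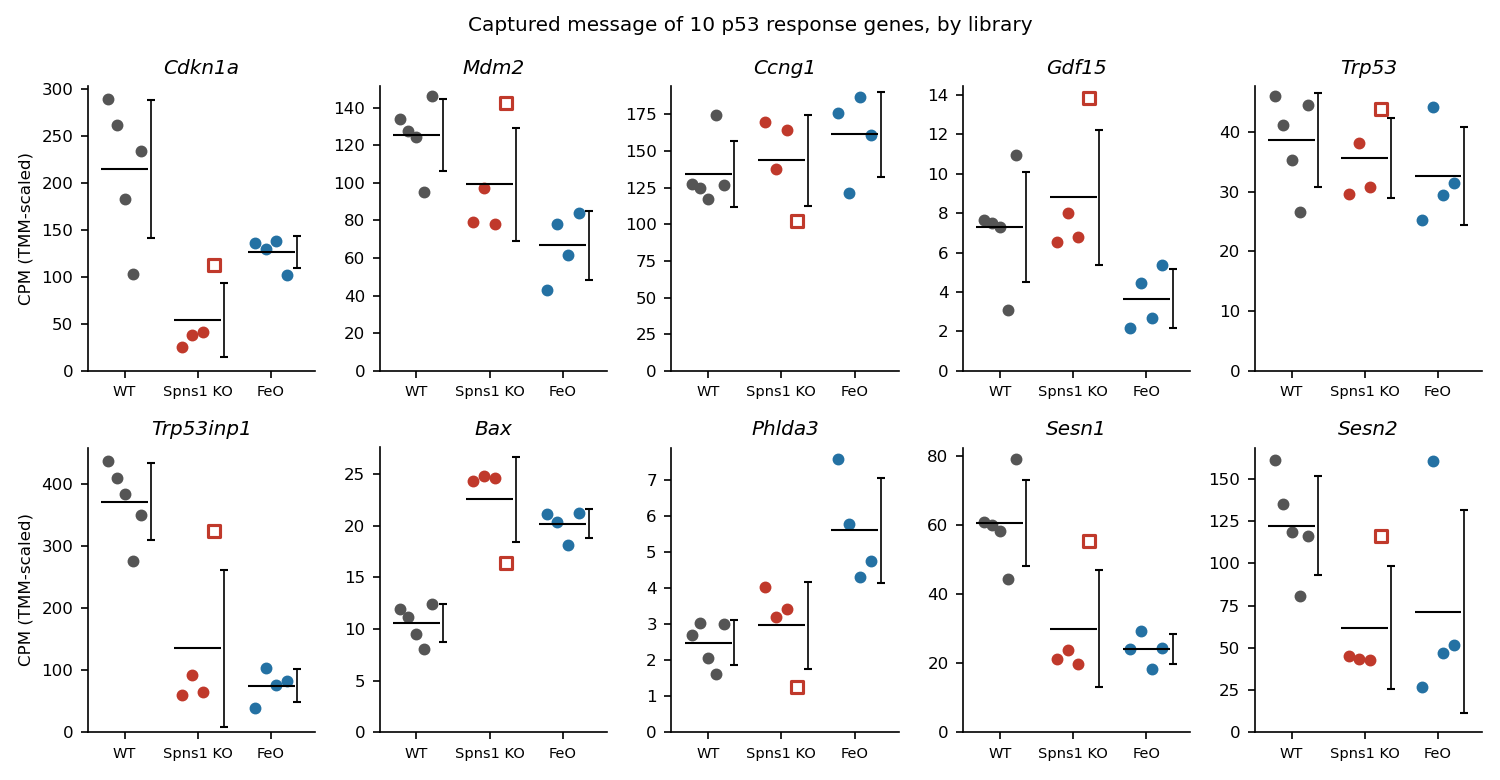
Each panel plots the CPM (TMM-scaled, linear axis from 0) of 1 gene in each of 13 libraries, with points for WT, Spns1 KO and FeO in replicate order, a horizontal line at the group mean and a bar of 1 SD on either side. The open square is the library labelled Spns1 KO 4, which lies apart from the other 3 of its group in most panels, as for Trp53inp1 at 324 CPM.

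Of the feedback genes, Mdm2, which encodes the ligase that removes p53, was low in FeO. Its level was 134, 128, 124, 94.8 and 146 CPM in WT and 43.2, 78.2, 61.7 and 84.1 CPM in FeO, so that all 4 FeO libraries lay below all 5 WT libraries. Among all genes tested, 16.4% had every FeO library below every WT library. The log2 fold change of Mdm2 was -0.91 (standard error 0.22). In Spns1 KO it was 79.0, 97.4, 77.9 and 142 CPM, with the last of these near the top of the WT range, and the log2 fold change was -0.34 (standard error 0.22), or -0.56 without that library, past the limits.

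Trp53, the p53 gene itself, had overlapping levels in all 3 groups. Its range was 26.6 to 45.9 CPM in WT, 29.5 to 43.9 CPM in Spns1 KO and 25.3 to 44.2 CPM in FeO. The log2 fold changes were -0.12 (standard error 0.20) in Spns1 KO and -0.25 (standard error 0.20) in FeO. In Spns1 KO it was -0.24 without the library labelled Spns1 KO 4. Removal of the length and GC trend gave a FeO value of -0.60, past the limits. Trp53 shares 10.2% of its 31-base words with other transcripts, chiefly the pseudogene Trp53-ps, so reads could have been divided between them.

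Ccng1 encodes cyclin G1, which recruits a phosphatase to Mdm2. It was 118 to 174 CPM in WT, 102 to 169.9 CPM in Spns1 KO and 121 to 187 CPM in FeO. These ranges overlapped throughout, and the log2 fold changes were 0.10 (standard error 0.19) and 0.26 (standard error 0.18), neither past the limits, and the former was 0.23 with the library labelled Spns1 KO 4 left out.

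Bax was the member that was higher in both models. It encodes the protein that permeabilizes mitochondria in apoptosis. WT libraries held 11.9, 11.2, 9.48, 8.05 and 12.5 CPM. Spns1 KO libraries held 24.3, 24.8, 24.6 and 16.4 CPM and FeO libraries 21.1, 20.3, 18.1 and 21.2 CPM. Every library of both models exceeded every WT library, including the library labelled Spns1 KO 4, the lowest of its group. Among all genes tested, every library exceeded every WT library in 13.1% for Spns1 KO and 16.9% for FeO. The means of Bax were 2.12 and 1.91 times that of WT, with log2 fold changes of 1.09 (standard error 0.17) and 0.93 (standard error 0.17), the former being 1.21 with the library labelled Spns1 KO 4 left out. Bax has a short transcript of 1100 bases with a GC content of 63.5%, and removal of the length and GC trend left 0.47 in both models, no longer past the limits. It overlaps the gene Gm45808 on the same strand, and 11.1% of its 31-base words occur in other transcripts.

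Trp53inp1 encodes a p53-induced nuclear protein that acts in cell death and autophagy, and its message was lower in both models. It was 438, 409, 384, 277 and 350.3 CPM in WT. FeO libraries held 38.6, 104, 77.0 and 82.5 CPM, all below WT. Libraries labelled Spns1 KO held 59.8, 93.0, 65.8 and 324 CPM, the first 3 within the FeO range and the fourth among the WT values. In FeO the mean was 0.203 times that of WT, a log2 fold change of -2.30 (standard error 0.45). In Spns1 KO the log2 fold change was -1.45 (standard error 0.44), or -2.35 without the library labelled Spns1 KO 4; it fell short of the limits when any of the other 3 Spns1 KO libraries or WT 3 was left out.

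Phlda3, an inhibitor of Akt signalling, was higher in FeO. It was 2.69, 3.02, 2.05, 1.62 and 3.01 CPM in WT and 7.57, 5.78, 4.30 and 4.76 CPM in FeO, where every library exceeded every WT library. Its log2 fold change in FeO was 1.18 (standard error 0.31), and 0.76 with the length and GC trend removed, still past the limits. The Spns1 KO libraries held 4.02, 3.19, 3.41 and 1.25 CPM, on both sides of the WT range. There the log2 fold change was 0.26 (standard error 0.31), 0.52 with the library labelled Spns1 KO 4 left out and -0.27 with the trend removed, none past the limits.

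The sestrins, which restrain mTORC1 signalling and support antioxidant defence, were lower in both models in most libraries. Sesn1 was 61.0, 60.1, 58.3, 44.4 and 79.2 CPM in WT. It was 21.1, 23.9, 19.9 and 55.4 CPM in Spns1 KO and 24.2, 29.3, 18.4 and 24.6 CPM in FeO, so that FeO lay wholly below WT and Spns1 KO did so but for the fourth library. The log2 fold change was -1.33 (standard error 0.28) in FeO and -1.01 (standard error 0.28) in Spns1 KO, or -1.48 without the library labelled Spns1 KO 4. Leaving out any of the other 3 Spns1 KO libraries ended that call.

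Sesn2 varied widely within both models. It was 161, 135, 119, 80.8 and 116 CPM in WT, 45.2, 43.5, 42.6 and 116 CPM in Spns1 KO and 26.9, 160.4, 46.8 and 51.8 CPM in FeO. A single library of each model, the library labelled Spns1 KO 4 and FeO 2, lay in the WT range and the others lay below it. The log2 fold changes were -0.98 (standard error 0.44) in Spns1 KO and -0.78 (standard error 0.44) in FeO, neither past the limits. They were -1.48 with the former left out and -1.53 with the latter left out, both past the limits, and leaving out FeO 2 also brought the Spns1 KO value past them.

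Gdf15 encodes a secreted stress cytokine. Its level was 7.65, 7.49, 7.31, 3.11 and 11.0 CPM in WT, 6.56, 8.01, 6.81 and 13.9 CPM in Spns1 KO and 2.20, 4.45, 2.68 and 5.36 CPM in FeO. FeO overlapped WT through WT 4, the lowest of its group. The log2 fold change was -0.99 (standard error 0.35) in FeO, which passed the limits but lost the call in 6 of 13 fits with a library left out, those without WT 1, WT 2, WT 3, WT 5, FeO 1 or FeO 3. In Spns1 KO it was 0.27 (standard error 0.34), and -0.03 without the library labelled Spns1 KO 4.

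**Figure D2:**
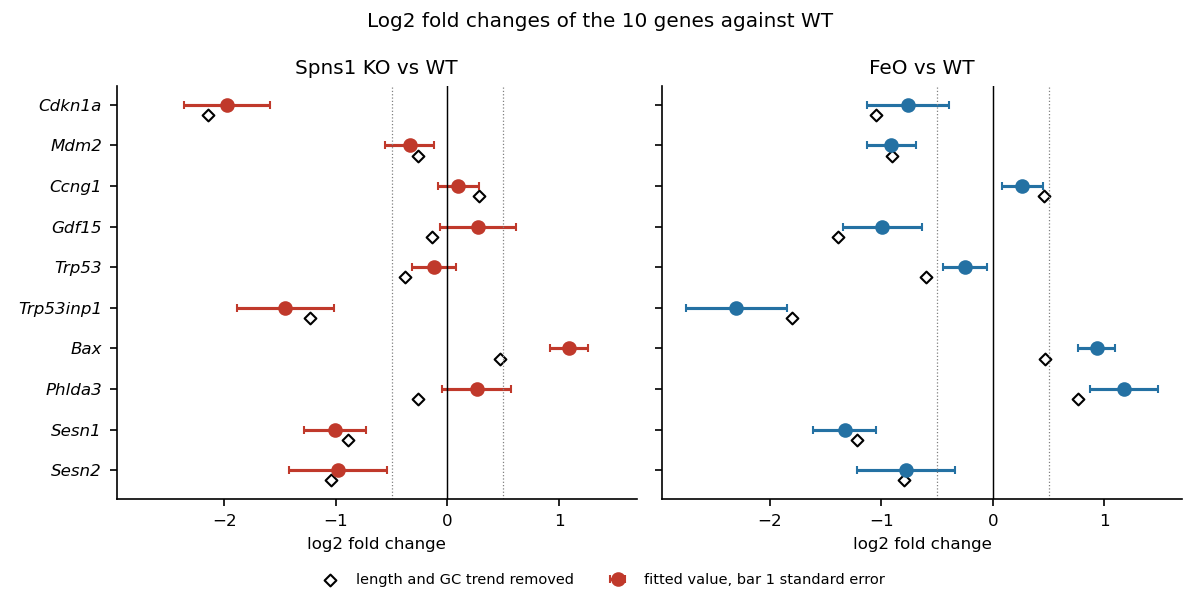
Log2 fold change against WT of each member in Spns1 KO (left) and FeO (right); circles are fitted values with bars of 1 standard error, diamonds the values with the length and GC trend removed, and dotted lines the fold limits of 0.5 in each direction. Cdkn1a is the lowest in Spns1 KO at -1.98 and Trp53inp1 the lowest in FeO at -2.30, and the diamonds of Bax lie just inside the limit at 0.47.

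In Spns1 KO against WT, 1 member was past the limits upward (Bax) and 3 downward (Cdkn1a, Trp53inp1, Sesn1), where 14.0% of all genes tested were called up and 7.55% down. In FeO against WT, 2 were past them upward (Bax, Phlda3) and 4 downward (Mdm2, Gdf15, Trp53inp1, Sesn1), where 22.4% of all genes were called up and 19.7% down. The members were chosen on these contrasts, so nothing is read from these shares. Both comparisons use the same 5 WT libraries. Without the library labelled Spns1 KO 4, 5 members were past the limits downward in Spns1 KO, with Mdm2 and Sesn2 added, where the share of all genes called down was 16.1%. The median log2 fold change of the members was -0.23 in Spns1 KO and -0.77 in FeO, beside -0.05 and -0.01 over all genes tested.

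**Figure D3:**
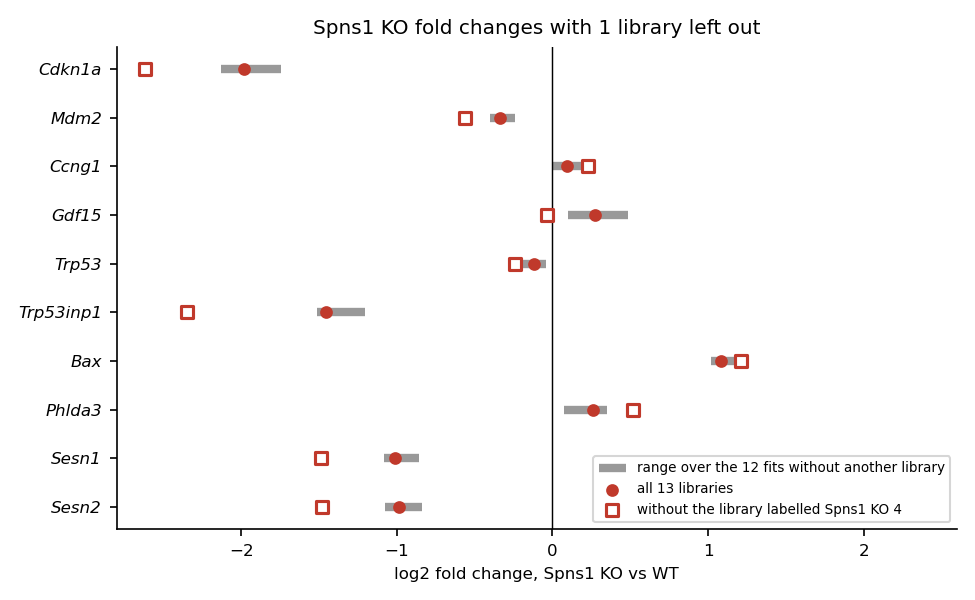
Log2 fold change of each member in Spns1 KO against WT with all 13 libraries (circles), with the library labelled Spns1 KO 4 left out (open squares) and over the 12 fits that left out another library (grey bars, lowest to highest). For Cdkn1a the square lies at -2.62 and the circle at -1.98, and for Trp53inp1 at -2.35 and -1.45.

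Set directly against FeO, Spns1 KO differed most in Gdf15 and Cdkn1a. Gdf15 had a log2 fold change of 1.26 (standard error 0.37), with all 4 Spns1 KO libraries above all 4 FeO libraries. Cdkn1a had one of -1.22 (standard error 0.39), with 3 of the 4 below every FeO library. Of all genes, 6.76% were called higher and 8.10% lower in Spns1 KO than in FeO. Every Spns1 KO library lay above every FeO library in 8.25% of all genes and below in 9.1%. The Cdkn1a call did not outlast most changes of the libraries: it was lost in 10 of 13 fits that left out a library and kept without WT 4, FeO 4 or the library labelled Spns1 KO 4, where the value was -1.86. That of Gdf15 was lost in 4 of 13, among them the fit without the library labelled Spns1 KO 4 (0.96). Phlda3 lay lower in all 4 Spns1 KO libraries than in FeO, at -0.92 on the log2 scale (standard error 0.32), which was not past the limits here but was so in 5 of 10 other settings: DESeq2, limma-voom, the replicate block, the trend removed, and these last together. The Cdkn1a call was lost in 5 of the 10, among them the replicate block, the trend removed and the fit of only these groups. For the other 7 members the values ran from -0.21 to 0.85.

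Compared per kilobase of transcript, Cdkn1a was the most abundant of the members in WT, at 103 ± 35.2 CPM per kb (SD, n = 5), and above 98.6% of the genes tested. Trp53inp1 followed at 68.8 ± 11.5 CPM per kb, and the libraries of these genes overlapped. Mdm2 (39.9), Ccng1 (38.2) and Sesn2 (35.2) came next and did not differ beyond their spread, and all lay below Trp53inp1 in every library. Trp53 (20.7) and Sesn1 (15.9) overlapped as well. Bax stood at 9.65 ± 1.65, Gdf15 at 4.73 ± 1.81 and Phlda3 at 1.73 ± 0.43 CPM per kb. In Spns1 KO the order changed to Ccng1 (40.8 ± 8.82, n = 4), Mdm2 (31.5 ± 9.58) and Cdkn1a (26.2 ± 19.0), whose ranges overlapped. Cdkn1a there ran from 12.15 to 54.2 CPM per kb, with the library labelled Spns1 KO 4 the highest. Its place without that library was not computed. In FeO, Cdkn1a was again first (60.8 ± 8.17 CPM per kb, n = 4) and Trp53inp1 had moved from the second to the seventh place (14.0 ± 5.01).

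Across the 13 libraries, the genes whose log2 level ran most like that of Cdkn1a were Actr6 (Pearson r = 0.94), Slc45a3 (0.93), Dcaf13 (0.93), Asb11 (0.92) and Zfp52 (0.92), of 12207 genes with a mean count of at least 100. These are given as a description, since the libraries fall into 3 groups and share their scaling. Of the members, Sesn1 (0.71), Trp53inp1 (0.65) and Sesn2 (0.64) ran most with Cdkn1a, at places 444, 714 and 787 of the ranking. Bax ran against it (-0.68), as did Ccng1 (-0.41). Slc45a3, a solute carrier, was 145.8 ± 10.3 CPM in WT (n = 5), 62.8 ± 20.5 CPM in Spns1 KO (n = 4) and 122 ± 24.1 CPM in FeO (n = 4). Asb11 was 5.48 ± 0.61, 2.38 ± 0.55 and 4.53 ± 1.18 CPM in the same order.

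The wider set of p53 targets did not move one way. It held 62 genes with textbook roles downstream of p53 that are not members, of which 60 were tested. In Spns1 KO 4 rose (6.67%) and 6 fell (10%), against 14.0% and 7.55% of all genes, with a median log2 fold change of -0.06. In FeO 15 rose (25%) and 7 fell (11.7%), against 22.4% and 19.7%, with a median of 0.04. Without the library labelled Spns1 KO 4, 11 rose and 15 fell in Spns1 KO, against 18% and 16.1% of all genes.

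Of these targets 5 were called in the same direction in both models. Rps27l, a ribosomal protein paralog that p53 induces, had log2 fold changes of 1.22 (adjusted p = 0.00234) in Spns1 KO and 1.47 (adjusted p = 0.00051) in FeO. Gpx1, the selenoenzyme that reduces peroxides, rose by 0.93 (adjusted p = 0.0336) and 1.21 (adjusted p = 0.00463). Dcxr, a xylulose reductase, rose by 1.11 (adjusted p = 0.0057) and 0.95 (adjusted p = 0.00673). With the length and GC trend removed, Rps27l stayed called in both models, while Gpx1 and Dcxr were called in neither, and Gpx1 also lost its Spns1 KO call in 5 of 13 fits with a library left out (any of Spns1 KO 1 to 3, WT 3 or WT 4). Apaf1, the core of the apoptosome, and Lpin1, a phosphatidate phosphatase, were the pair that fell. Apaf1 had -0.62 (adjusted p = 0.0454) in Spns1 KO and -1.29 (adjusted p = 0.000657) in FeO, and its Spns1 KO call was lost in 11 of 13 fits that left out a library, with only those without the library labelled Spns1 KO 4 or FeO 3 keeping it. Lpin1 had -1.22 (adjusted p = 0.0122) and -1.37 (adjusted p = 0.00323).

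A further 5 targets were called in Spns1 KO. Igfbp3, which binds insulin-like growth factors, rose by 0.89 (adjusted p = 0.00919). Thbs1, the matrix protein thrombospondin, had a log2 fold change of -0.94 (adjusted p = 0.00289). Ppm1d, the phosphatase that switches off p53 signalling, had -0.74 (adjusted p = 0.00956) in Spns1 KO and -0.42 (adjusted p = 0.0682) in FeO. The repair polymerase gene Polk (-0.58, adjusted p = 0.0149) and the glycolytic regulator Tigar (-0.53, adjusted p = 0.0196) lost their calls in 3 and 5 of 13 fits with a library left out, and with the length and GC trend removed. Mdm4, which restrains p53 as Mdm2 does, was at -0.49 (adjusted p = 0.0613) in Spns1 KO and -0.48 (adjusted p = 0.0396) in FeO, short of the fold limit.

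In FeO, the largest changes among the other targets were those of Plk3, a stress-induced kinase (-3.15, standard error 0.94, adjusted p = 0.0143), and Ddit4, an inhibitor of mTORC1 (-3.05, standard error 0.82, adjusted p = 0.00801). The receptor kinase gene Epha2 fell by 1.21 on the log2 scale (adjusted p = 0.0341), a call lost in 7 of 13 fits with a library left out (WT 1, WT 2, WT 3, WT 5, FeO 1, FeO 3 or FeO 4). WT and FeO overlapped for all of these. Plk3 was 25.5 to 277 and 4.3 to 43.2 CPM, Ddit4 7.98 to 127 and 6.72 to 16.15 CPM, and Epha2 8.87 to 30.1 and 6.92 to 15.5 CPM. In Spns1 KO, Plk3, Ddit4 and Epha2 had -0.85, -1.04 and -0.71, none called. Without the library labelled Spns1 KO 4 they had -2.57, -2.74 and -1.45, all called. In FeO Ak1, an adenylate kinase, rose by 2.03 (adjusted p = 0.000973), the tetraspanin gene Cd82 by 1.64 (adjusted p = 0.000384) and the apoptosis gene Siva1 by 1.09 (adjusted p = 0.00257). By role, 4 of 12 apoptosis genes rose in FeO (Siva1, Ei24, Perp and Triap1) while Apaf1 fell, and 5 of 14 metabolic genes rose (Gpx1, Sco2, Dram1, Sat1 and Ephx1) while Lpin1 and Ddit4 fell. Of 8 DNA repair genes, Pcna and Fancc rose and Ercc5 fell, and of 7 arrest genes Plk3 and Btg2 fell. Of all genes 22.4% rose and 19.7% fell. With the length and GC trend removed, Siva1, Ei24, Dram1 and Fancc were still called up, whereas Perp, Triap1, Gpx1, Sco2, Sat1, Ephx1 and Pcna were not. Those of these genes not given with values above were named after their values were seen.

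The regulators of p53 were lower more often than higher. Of 22 tested, 2 rose and 7 fell in Spns1 KO (median -0.33), where 14.0% and 7.55% of all genes did so, and 1 rose and 13 fell in FeO (median -0.61), where 22.4% and 19.7% did. In Spns1 KO 9 fell without the library labelled Spns1 KO 4, where 16.1% of all genes fell, and 2 to 4 fell without Spns1 KO 1, Spns1 KO 2, Spns1 KO 3, WT 1, WT 2 or WT 3. Of all genes, 3.16%, 3.15%, 3.02%, 6.51%, 5.87% and 3.41% fell in those fits, in the same order. Hipk2, a kinase that activates p53, had a log2 fold change of -1.62 (adjusted p = 0.00146) in FeO. The acetyltransferases Ep300 (-1.50, adjusted p = 0.000408) and Crebbp (-1.06, adjusted p = 0.00224) fell there too, and Ep300 had -0.61 (adjusted p = 0.046) in Spns1 KO, a call lost in 9 of 13 fits with a library left out, those without the library labelled Spns1 KO 4, WT 5, FeO 1 or FeO 2 keeping it. Rpl11, a ribosomal protein that binds Mdm2, rose in Spns1 KO (1.06, adjusted p = 0.004) and in FeO (0.88, adjusted p = 0.00565), and Rpl5, which does the same and was named after its values were seen, rose in Spns1 KO (0.60, adjusted p = 0.0268), a call lost without any of Spns1 KO 1 to 3, WT 3 or WT 4. The regulators' transcripts were longer than most, at a median of 4436.5 bases beside 3061 over all genes tested. In the fit without that dependence on length and GC content 1 rose and 2 fell in Spns1 KO, where 10.4% of all genes rose and 4.69% fell. In FeO 1 rose and 6 fell there, where 19% of all genes rose and 13.9% fell. Hipk2 and Ep300 in FeO and Rpl11 in Spns1 KO were still called in that fit. Crebbp (-0.45) and Rpl11 (0.33) in FeO and Ep300 (-0.31) and Rpl5 (0.48) in Spns1 KO were not, and the gene called up in FeO was Cop1 (0.71), named after its values were seen. Of the p53 relatives, Trp63 fell in Spns1 KO (-1.33, adjusted p = 0.00317, or -1.53 with the library labelled Spns1 KO 4 left out) and had -0.12 (adjusted p = 0.727) in FeO.

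The other inhibitors of cyclin-dependent kinases were called in both directions. Of 5 tested, 1 rose and 1 fell in Spns1 KO, or 2 and 1 with the library labelled Spns1 KO 4 left out, and 3 rose in FeO. Of all genes 14.0% rose and 7.55% fell in Spns1 KO, or 18% and 16.1% without that library, and 22.4% rose in FeO. Cdkn1c, which encodes p57, rose in Spns1 KO (0.90, adjusted p = 0.00942) and in FeO (1.82, adjusted p = 0.000313), and its Spns1 KO value was 0.53 and not called with the length and GC trend removed. Cdkn2b, which encodes p15, rose in FeO (0.93, adjusted p = 0.0111) and had -0.76 (adjusted p = 0.0554) in Spns1 KO. With the length and GC trend removed it was 0.41 and not called in FeO, and -1.25 and called in Spns1 KO, where 6 of 10 other settings called it. Cdkn2c rose in FeO (0.88, adjusted p = 0.00177). Cdkn1b, which encodes p27, fell in Spns1 KO (-0.58, adjusted p = 0.00649), a call that ended with the trend removed (-0.38). Cdkn2a, a common marker of senescence, had 0 to 2 counts per library and was not tested.

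Among 13 genes for G1 cyclins, their kinases and pocket proteins, 1 rose and 1 fell in Spns1 KO, or 2 and 2 with the library labelled Spns1 KO 4 left out, and 2 rose and 2 fell in FeO. In Spns1 KO 7.69% rose and 7.69% fell, beside 14.0% and 7.55% of all genes. In FeO 15.4% rose and 15.4% fell, beside 22.4% and 19.7%. Without the library labelled Spns1 KO 4, 18% of all genes rose and 16.1% fell in Spns1 KO. Ccnd3, a D-type cyclin, rose in FeO (0.99, adjusted p = 0.000798), whereas Ccne2 (-1.40, adjusted p = 0.00382) and Cdk6 (-0.83, adjusted p = 0.00139) fell. Ccne1 fell in Spns1 KO (-0.97, adjusted p = 0.0425), a call lost in 11 of 13 fits that left out a library, with those without the library labelled Spns1 KO 4 or FeO 3 keeping it. The remaining called gene, named after its values were seen, was Cdk4, the kinase that pairs with D-type cyclins, at 0.55 (adjusted p = 0.0233) in Spns1 KO and 0.67 (adjusted p = 0.00392) in FeO. Its Spns1 KO call was lost without any of Spns1 KO 1 to 3 or WT 3, and both calls ended with the trend removed.

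Proliferation genes fell more often than they rose in FeO. Of 25, 1 rose and 13 fell in FeO (52%, against 19.7% of all genes), with a median log2 fold change of -0.81, and 9 to 13 fell in the fits that left out a library, the lowest without FeO 1. Top2a (-1.61, adjusted p = 0.00282) encodes topoisomerase II alpha and Mki67 (-1.60, adjusted p = 0.0114) the Ki-67 antigen. The mitotic kinase genes Plk1 (-1.42, adjusted p = 0.00586) and Aurkb (-1.35, adjusted p = 0.0176) fell as well. The gene that rose was Ube2c (1.32, adjusted p = 0.00873), a mitotic ubiquitin-conjugating enzyme. In Spns1 KO the median was -0.33, and the single call was Rrm2, a subunit of ribonucleotide reductase (-0.79, adjusted p = 0.00874), with 2 calls when the library labelled Spns1 KO 4 was left out. Of all genes 7.55% fell in Spns1 KO, or 16.1% without that library. Ube2c and Rrm2 were named after their values were seen. Macrophage markers, which belong to a cell type that can divide, summed to 47.4 to 56.1 CPM in WT and 73.0 to 95.0 CPM in FeO; their part in the result was not tested.

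**Figure D4:**
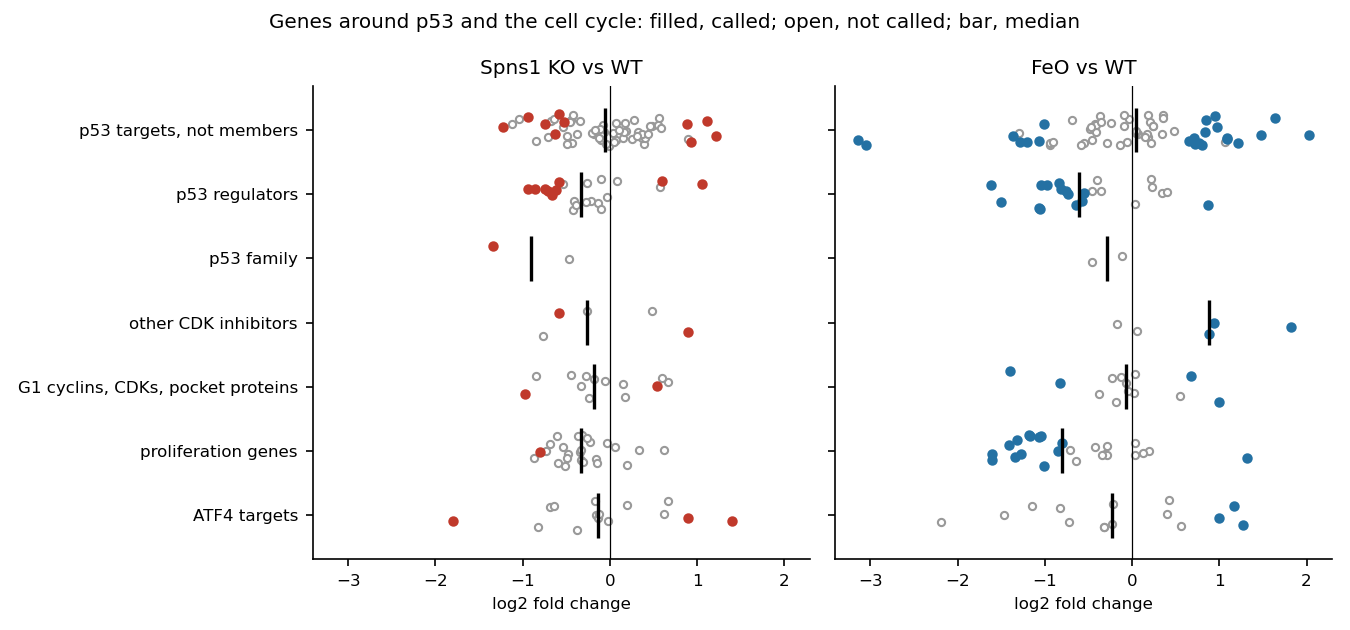
Log2 fold change against WT in Spns1 KO (left) and FeO (right) of the genes of 7 lists, 1 point a gene; filled points were called, open points were not, and the black bar is the median of the list. Targets of p53 lie on both sides of 0 in both panels (medians -0.06 and 0.04), and the proliferation genes lie mostly below 0 in FeO (median -0.81).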

How the data were processed

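The deposited table gave, for every gene symbol, 1 estimated count per library. Per the labels, thiol-tagged kidney RNA was biotinylated, captured and poly-A selected, and libraries were made with TruSeq kits and sequenced from both ends. The submitters' processing notes list bcl2fastq 2.19, kallisto 0.44.0, DESeq2 and GRCm38, whereas the study's methods describe Trimmomatic, STAR and HTSeq on mm10. These steps decide how reads shared by paralogs and overlapping genes are divided.

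The counts were whole numbers and were scaled with TMM factors in edgeR 4.0.16 (R 4.3.3). Genes kept by filterByExpr were tested with edgeR's quasi-likelihood test in 1 fit of all 13 libraries, with Benjamini-Hochberg adjustment over all 16468, an adjusted p limit of 0.05 and a log2 fold change limit of 0.5. Total counts were 31809135 to 71296474 in Spns1 KO, 23068023 to 37362311 in WT and 25986133 to 29981814 in FeO. The study's methods speak of littermates, but the labels do not tie libraries to separate animals, so p-values measure the spread between these samples. Transcript lengths, GC content and gene positions came from GENCODE M21, in which 34222 of 35013 symbols had a transcript; the longest coding transcript was used. Lists covered p53 targets, regulators and relatives, CDK inhibitors, G1 genes, proliferation, ATF4 targets and 9 sets of cell type markers. Members and lists were chosen with earlier results of these data known. Named were all members, targets called in the same direction in both models, up to 6 further targets per comparison and up to 4 called genes per other list by size of change, Mdm4, Ppm1d and Cdkn2a, and the 5 genes most like Cdkn1a. The symbols Ptprv, Trp53cor1 and Lin54 found no row. Alternatives were other scaling, no filter, DESeq2 1.42.0, limma-voom (limma 3.58.1), the replicate number as a block, removal of a spline trend on length and GC content, only the groups compared, and each library left out.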

Additional observations from a re-analysis of the deposited data

Results flagged for a closer look

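In 3 of the 30 sets of a member's values in a group, a library lay far from the rest by Dixon's test. A single set would pass this limit by chance in about 1 of 20 cases. The 30 sets share the same 13 libraries and are not independent, so that rate is not a measure for the count of 3. In the library labelled Spns1 KO 4, the gap to the nearest library in log2 CPM was 0.954 of the group's range for Bax and 0.941 for Sesn2. In WT 4 it was 0.794 for Ccng1. These ratios, and which sets are flagged, depend on the log scale and can differ for the CPM values given above.

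The direct comparison of Spns1 KO with FeO passed the limits for 2 members, Cdkn1a (-1.22 on the log2 scale) and Gdf15 (1.26), which are descriptions only. Among 60 other p53 targets it was past them for 9, with 1 higher (1.67%) and 8 lower (13.3%). Of all genes tested, 6.76% were called higher and 8.10% lower. Thbs1 (-0.88, adjusted p = 0.00983), Cd82 (-1.05, adjusted p = 0.0103), Sulf2 (-0.69, adjusted p = 0.0201) and Tigar (-0.59, adjusted p = 0.021) were lower in Spns1 KO than in FeO. Thbs1 and Cd82 kept the call in all 13 fits that left out a library. Sulf2 lost it without FeO 1, and Tigar without FeO 1 or Spns1 KO 1. Lower too were Sat1 (-0.61, adjusted p = 0.0355), Ei24 (-0.65, adjusted p = 0.0467), Dram1 (-0.67, adjusted p = 0.0468) and Pcna (-0.69, adjusted p = 0.0483), and Pmaip1, which encodes the BH3-only protein Noxa, was higher (0.79, adjusted p = 0.0492). These last 5 lost the call in 7 to 11 of the 13 fits, the fit without the library labelled Spns1 KO 4 among them.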

How the results depend on the processing

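No member past the limits changed direction, and of 690 member fold changes under other settings 680 moved by less than the spread between replicates. That spread is the SD between single libraries, and leaving out 1 library usually moves a group mean by only part of it. The count of 680 therefore says little about whether calls last. For example, the Cdkn1a call in Spns1 KO against FeO was kept in 3 of 13 fits with a library left out. For the lists only counts were compared, not direction. Counts of members or p53 targets past the limits moved in 53 cases and stayed about the same in 154. The other counts moved in 144 cases and stayed about the same in 822. Removing the length and GC trend left 2 p53 targets called up in Spns1 KO (4 with all settings as reported) and 8 in FeO (15). Of all genes, 10.4% and 19% were called up in that fit, beside 14.0% and 22.4% as reported. Library totals in place of TMM factors shifted the median of all genes in Spns1 KO from -0.045 to -0.177, turned the split of all calls from 2307 up and 1243 down to 1739 and 2086, and gave 11 targets called down in FeO (7). With library totals 21% of all genes were called down in FeO. For Spns1 KO against FeO, members past the limits (2) were 1 with upper-quartile factors or library totals and 0 with only those groups in the fit. They were 3 with DESeq2 and limma-voom, which added Phlda3, and under the replicate block or with the trend removed Cdkn1a was lost and Phlda3 gained. Targets called up there (1) were 0 with DESeq2 size factors, without the filter and with only those groups, and 2 with DESeq2, and those called down (8) were 4 without the filter and 3 with only those groups. Of all genes, 4.95% were called down there without the filter and 3.79% with only those groups.

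Replicate numbers did not pair the libraries: deviations from the group means correlated between -0.296 and 0.256, and 3 of 12 libraries ran best with their own number. With the replicate block, 0 targets were called up and 5 down in Spns1 KO against FeO. With the block and the trend removed together, Spns1 KO had 1 member past the limits and 1 target up and 2 down, and FeO had 6 targets up.

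Leaving out 1 library gave 2 to 6 members past the limits in Spns1 KO, 5 to 7 in FeO and 0 to 2 in Spns1 KO against FeO. Targets called up and down were 3 to 11 and 3 to 15 in Spns1 KO, 15 to 16 and 5 to 10 in FeO, and 0 to 4 and 2 to 9 between the models. Over the same fits, 9.18% to 18% of all genes were called up and 3.02% to 16.1% down in Spns1 KO. In FeO these shares were 19.7% to 24.2% and 14% to 21.2%, and between the models 3.27% to 8.73% and 3.81% to 9.77%. The values of 11 and 15 targets came without the library labelled Spns1 KO 4, where 18% and 16.1% of all genes were called. Those of 3 targets down came without Spns1 KO 1 or Spns1 KO 3, where 3.16% and 3.02% of all genes were called down. Between the models, 4 up came without FeO 2 and 2 down without FeO 1. Where no cause is shown by the alternative itself, the cause was not tested. Gdf15 and Phlda3 had the fewest counts of the members, so counting error bears most on them.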

Other observations

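Of 15 targets of ATF4, the transcription factor of amino acid and mitochondrial stress that also drives Sesn2 and Gdf15, 2 rose and 1 fell in Spns1 KO, where 14.0% and 7.55% of all genes did so, and 3 rose in FeO, where 22.4% did. Without the library labelled Spns1 KO 4, 5 fell in Spns1 KO, with Atf3 (-3.04), Chac1 (-2.86), Trib3 (-2.17) and Ppp1r15a (-1.32) added, and 3 fell in FeO (Atf3, Chac1 and Trib3). In that fit 16.1% of all genes fell in Spns1 KO and 21.2% in FeO. These ATF4 targets were named after their values were seen. Nupr1, a stress-induced chromatin protein, rose in both models (1.40, adjusted p = 0.00118, and 1.27, adjusted p = 0.001). Slc7a11, the cystine importer, fell in Spns1 KO (-1.80, adjusted p = 0.00172) and had -0.32 (adjusted p = 0.406) in FeO. Asparagine synthetase, Asns, rose in FeO (1.17, adjusted p = 0.00879), as did the folate enzyme gene Mthfd2 (1.00, adjusted p = 0.0228), whose call was lost without WT 3 or FeO 1. Phgdh, the entry enzyme of serine synthesis, rose in Spns1 KO (0.90, adjusted p = 0.0298) and was named after its values were seen. That call was lost without Spns1 KO 1, Spns1 KO 3, WT 3, WT 4 or WT 5.

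Of 10 proximal tubule markers, 7 rose in Spns1 KO, where 14.0% of all genes rose. In FeO 2 rose and 1 fell, where 22.4% and 19.7% of all genes did so. Collecting duct markers summed to 409.7 to 689.9 CPM in WT, 339 to 501 CPM in Spns1 KO and 539.6 to 1530 CPM in FeO. The sums of podocyte markers were 155 to 276 CPM, 225 to 284 CPM and 276 to 630.3 CPM in the same order, those of endothelial markers 151 to 178, 186 to 215 and 159 to 283 CPM, and those of fibroblast markers 93.2 to 138, 158 to 203 and 72.8 to 160.3 CPM. For the loop of Henle the sums were 1116 to 2442, 2002 to 2712 and 1291 to 3386 CPM, for the distal tubule 409.4 to 1774, 1065 to 2133 and 523 to 1878 CPM, and for lymphocytes 8.55 to 15.0, 12.5 to 15.6 and 7.62 to 15.9 CPM.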
